A study of Mus musculus with 14 samples.

Results

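The genes described here are surface receptors of myeloid cells: the SLAM family members Slamf9, Ly9 and Cd84, the small GPI-anchored protein Cd52, the MS4A proteins Ms4a7, Ms4a6c and Ms4a6d, and the immunoglobulin-like receptor Lilr4b. They are 8 of 10 symbols that were picked because several of them rose strongly with conduritol B-epoxide (CBE), some also in the mutant mice. The other 2 symbols, Cd48 and Pilra, are not listed in the count table and were not analysed here. The 8 genes stand among 13866 genes listed and 11852 tested, and all 8 passed the filter on low counts, which in these genes was met through the CBE groups.

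RNA was sequenced from the brain of 14 mice aged 19 days, 1 library per mouse. WT mice were of the strain C57BL/6JOlaHsd, and MyTrMaSt null mice lacked the adaptors Myd88, Ticam1 (TRIF), Mavs and Tmem173 (STING), which carry signals from Toll-like receptors, RNA sensors and cGAS. Mice of each genotype were injected daily from the second postnatal week with PBS or with 100 mg/kg CBE, an irreversible inhibitor of the lysosomal enzyme glucocerebrosidase that gives a model of neuronopathic Gaucher disease. The groups held 3 libraries of WT + PBS, 3 of WT + CBE, 3 of MyTrMaSt + PBS and 5 of MyTrMaSt + CBE. The deletion is carried in every cell of the MyTrMaSt mice, and the background strain of that line is not given in the labels.

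SLAM receptors are immunoglobulin-type proteins of blood cells, and most of them bind a copy of themselves on a neighbouring cell and signal through small SH2 adaptors. MS4A proteins span the membrane several times and are found in macrophages and microglia, where the human gene cluster is known for its link with Alzheimer disease risk. Receptors of the LILR type come in activating and inhibitory forms, the first pairing with ITAM adaptors such as Fcer1g and Tyrobp, the second recruiting phosphatases such as Ptpn6 and Inpp5d.

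The genes lie in 4 places of the mouse genome (GRCm38, the build called mm10). Ly9 (chr1:171588624-171607410, minus strand), Cd84 (chr1:171839697-171890718, plus) and Slamf9 (chr1:172475358-172478575, plus) share a stretch of chromosome 1. Ms4a7 (chr19:11321039-11336146, minus), Ms4a6c (chr19:11469366-11482192, plus) and Ms4a6d (chr19:11586604-11604849, minus) share a stretch of chromosome 19. Cd52 (chr4:134082448-134095082, minus) and Lilr4b (chr10:51480632-51486703, plus) each lie apart. Of the 11 other tested genes inside the chromosome 1 stretch none was called with CBE in WT mice, whereas the 1 other gene in the chromosome 19 stretch, Ms4a6b, was called higher.

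Promoters of 3 of these genes are shown as examples from the 3 families: Slamf9 and Lilr4b, whose CBE libraries lay above the PBS libraries in both genotypes, and Ms4a7, whose PBS and CBE libraries overlapped in MyTrMaSt mice. The sequences are the 250 bases before the transcription start from RefSeq (GRCm38.p6), read 5′ to 3′ on the strand of the gene, at chr1:172475110-172475359 (plus) for Slamf9, chr10:51480362-51480611 (plus) for Lilr4b and chr19:11336147-11336396 (minus) for Ms4a7. Capitals mark GAGGAA, the core bound by PU.1, the lineage factor of myeloid cells.
Slamf9: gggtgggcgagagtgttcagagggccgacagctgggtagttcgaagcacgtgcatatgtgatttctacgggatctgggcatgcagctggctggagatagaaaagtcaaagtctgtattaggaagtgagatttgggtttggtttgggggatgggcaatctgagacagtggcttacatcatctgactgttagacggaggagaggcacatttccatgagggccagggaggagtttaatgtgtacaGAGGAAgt
Lilr4b: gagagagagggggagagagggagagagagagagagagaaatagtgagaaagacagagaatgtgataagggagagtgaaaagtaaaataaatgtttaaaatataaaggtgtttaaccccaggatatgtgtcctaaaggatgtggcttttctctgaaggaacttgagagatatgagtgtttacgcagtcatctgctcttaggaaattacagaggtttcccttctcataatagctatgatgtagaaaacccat
Ms4a7: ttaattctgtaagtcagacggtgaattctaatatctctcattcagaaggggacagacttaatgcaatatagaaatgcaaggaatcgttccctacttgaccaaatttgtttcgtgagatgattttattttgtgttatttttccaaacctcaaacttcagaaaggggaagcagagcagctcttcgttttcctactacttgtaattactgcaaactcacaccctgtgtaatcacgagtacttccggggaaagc
The table used held promoters for 5 of the 8 genes, with 2 starts for Ms4a7. GAGGAA was searched on both strands and was found in Slamf9 alone of these 5, with its first base at position -8 from the start. That core is held by 23.3% of 32851 promoters of the same length. Neither the interferon-stimulated response element (2.98% of promoters) nor the ETS-IRF composite element (2.3%) was found in the 5 genes. The composite pattern can overlap the other 2 patterns, and a match or its absence describes these letters only.

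Total counts per library ran from 1290616 to 3704691, and the median count of a tested gene from 29 to 107, so single reads decide the values of most of these genes in PBS brain. Levels are given as CPM, counts scaled to a common library size with TMM factors. The libraries were made from the 3′ ends of transcripts, so that counts follow the number of transcripts and are compared between genes without a length term. WT + PBS replicate 1 was the shallowest library and stood farthest from the others of its group. Counts of the deleted genes, not scaled for depth, cover whole genes and not the deleted part. With PBS, Myd88 had 9 to 17 counts in MyTrMaSt libraries against 19 to 36 in WT. With CBE it had 10 to 22 against 45 to 71. Ticam1 and Mavs overlapped between genotypes, and Tmem173 was not lower in the mutants.

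Taken as a sum, the 8 genes stood at 9.09 to 20.7 CPM with PBS and 240 to 253 CPM with CBE in WT, and at 6.88 to 9.48 CPM and 60.6 to 70.2 CPM in MyTrMaSt. The ranges of the CBE groups did not overlap with each other or with either PBS group. Because the genes were chosen by these CBE contrasts, the rise itself is given as a description, with no p for any of them.

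**Figure D1:**
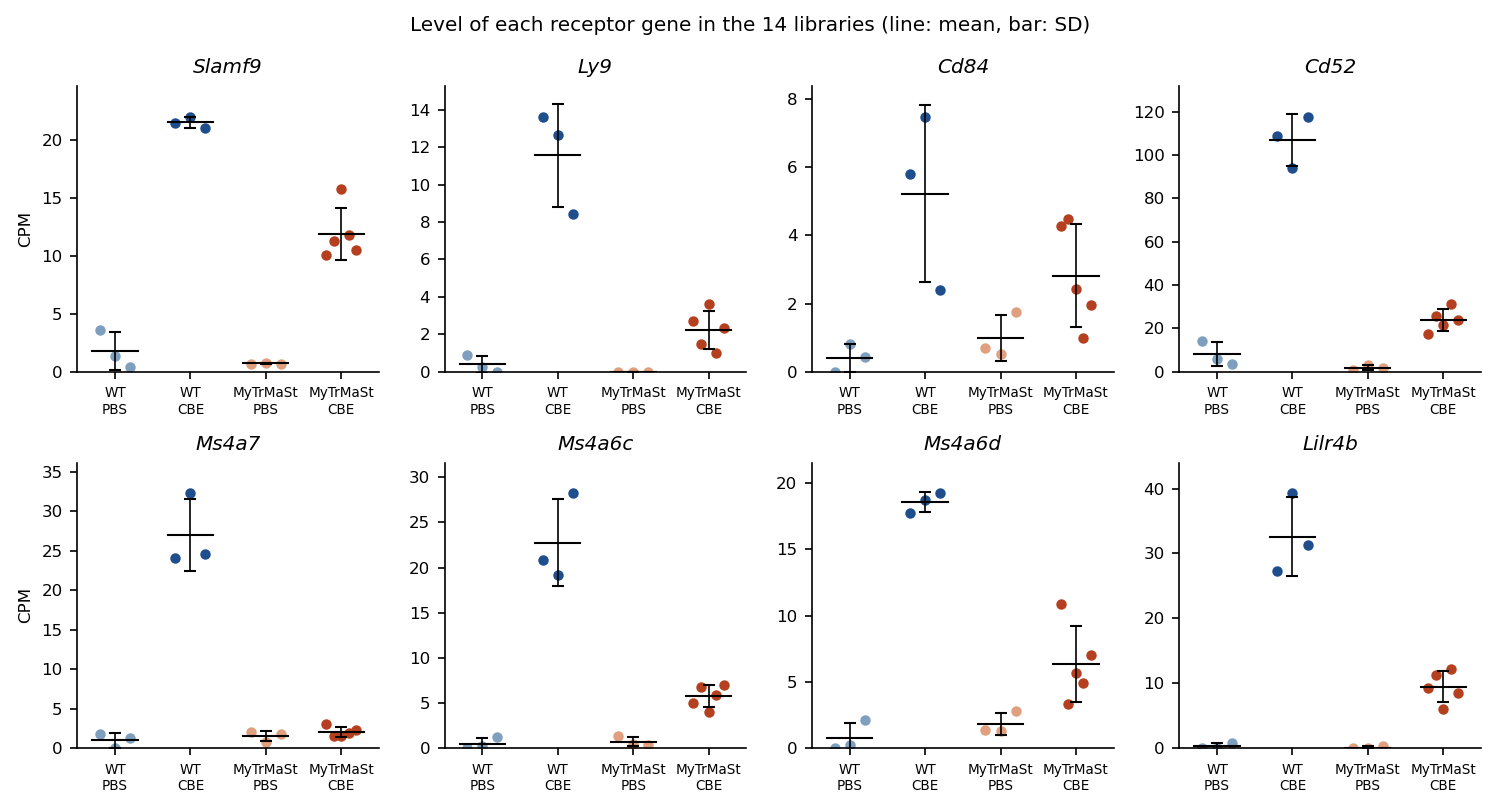
CPM of the 8 genes (y axes, each from 0) in every library of the 4 groups (x axes), with a line at the group mean and a bar of 1 SD. In WT + CBE every gene sits above all WT + PBS libraries, and in MyTrMaSt + CBE the points for Ms4a7 lie between 1.497 and 3.11 CPM, overlapping those of MyTrMaSt + PBS.

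The SLAM family genes rose in WT mice from near the limit of counting. Slamf9, a short SLAM protein without the usual cytoplasmic signalling motifs, stood at 3.598, 1.38 and 0.421 CPM in WT + PBS and at 21.5, 22.0 and 21.0 CPM in WT + CBE. In MyTrMaSt mice its level was 0.688, 0.790 and 0.702 CPM with PBS and 10.1, 11.2, 15.75, 11.8 and 10.5 CPM with CBE. No CBE library of either genotype overlapped with its PBS group, and the WT + CBE libraries lay within 1 CPM of each other. The fitted log2 difference was 3.87 (SE 0.38) in WT and 3.93 (SE 0.39) in MyTrMaSt.

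Ly9 (CD229), which binds itself between cells, was counted in 0 to 1 reads per WT + PBS library and in no MyTrMaSt + PBS library. After CBE it stood at 13.6, 12.6 and 8.41 CPM in WT and at 2.72, 1.497, 3.635, 0.981 and 2.34 CPM in MyTrMaSt. The WT libraries were all above the MyTrMaSt ones, and the latter rest on 2 to 9 reads each. Over pooled counts the CBE to PBS ratio in WT was 43.2 (95% counting interval 11.6 to 362). In MyTrMaSt mice Ly9 was at least 7.24-fold higher with CBE, against a floor of 3 counts over the PBS group.

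Cd84, another self-binding SLAM receptor, was the lowest of the 8 genes in WT + CBE. It stood at 0, 0.826 and 0.421 CPM in WT + PBS and at 5.80, 7.485 and 2.40 CPM in WT + CBE, where the lowest library had 4 reads. In MyTrMaSt mice it was at 0.688, 0.527 and 1.755 CPM with PBS and at 4.27, 4.49, 2.42, 0.981 and 1.95 CPM with CBE. The WT groups did not overlap, and the MyTrMaSt groups did. The log2 difference was 3.18 (SE 0.69) in WT and 1.56 (SE 0.58) in MyTrMaSt.

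Cd52, a very short GPI-anchored glycoprotein of leukocytes and the target of the antibody alemtuzumab, was the most abundant of the 8. It was found at 14.4, 6.06 and 3.785 CPM in WT + PBS and at 109, 94.0 and 118 CPM in WT + CBE. With PBS the MyTrMaSt libraries stood at 0.688, 3.16 and 1.755 CPM and with CBE at 17.5, 25.8, 21.4, 31.4 and 23.8 CPM. All 4 groups were thus apart, with the highest MyTrMaSt + PBS library below the lowest of WT + PBS. With CBE the log2 difference reached 3.93 in WT (SE 0.34) and 3.57 in MyTrMaSt (SE 0.39). Exons of Cd52 overlap those of Crybg2 on the opposite strand, and whether counting used the strand is not stated.

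All 3 MS4A genes stood lower in every MyTrMaSt + CBE library than in every WT + CBE library. Ms4a7, a membrane protein of macrophages, stood at 1.80, 0 and 1.26 CPM in WT + PBS and at 24.1, 32.3 and 24.6 CPM in WT + CBE. In MyTrMaSt mice it was at 2.065, 0.790 and 1.755 CPM with PBS and at 3.11, 1.497, 1.62, 1.96 and 2.34 CPM with CBE, 4 to 8 reads in each CBE library. The WT groups lay far apart and the MyTrMaSt groups overlapped. The log2 difference was 5.13 (SE 0.49) in WT and 0.50 (SE 0.52) in MyTrMaSt, and the MyTrMaSt count ratio was 1.44 with a 95% counting interval of 0.725 to 2.98.

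Ms4a6c stood at 0, 0.275 and 1.26 CPM in WT + PBS and at 20.9, 19.2 and 28.2 CPM in WT + CBE. Its level in MyTrMaSt mice was 1.38, 0.527 and 0.351 CPM with PBS and 5.05, 6.74, 4.04, 5.89 and 7.02 CPM with CBE. CBE libraries were above PBS libraries in both genotypes, with a log2 difference of 5.205 (SE 0.48) in WT and 2.89 (SE 0.46) in MyTrMaSt. Of the 50-base stretches in the last 500 bases of its transcripts, 13.7% also occur in other genes, mostly in Ms4a6b, and only uniquely mapped reads were kept.

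For Ms4a6d the WT + PBS libraries held 0, 0.275 and 2.10 CPM and the WT + CBE libraries 17.7, 18.7 and 19.2 CPM. MyTrMaSt libraries held 1.38, 1.32 and 2.81 CPM with PBS and 10.9, 3.37, 5.655, 4.91 and 7.02 CPM with CBE. The lowest MyTrMaSt + CBE library was close to the highest MyTrMaSt + PBS library without overlap. The log2 difference was 4.37 (SE 0.55) in WT and 1.81 (SE 0.46) in MyTrMaSt. The WT + PBS level rests on 6 reads, 5 of them in replicate 3.

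Lilr4b, the gene of the gp49A receptor, was counted in 2 reads over all WT + PBS libraries and in 1 read over all MyTrMaSt + PBS libraries. After CBE it reached 27.3, 39.3 and 31.2 CPM in WT and 9.32, 11.2, 6.06, 12.3 and 8.58 CPM in MyTrMaSt. Every CBE library held at least 15 reads, and the WT libraries were all above the MyTrMaSt ones. The pooled ratio was 113 (95% counting interval 30.9 to 938) in WT and 89.9 (15.8 to 3582) in MyTrMaSt. Lilr4b shares 23.0% of its 3′-end stretches with its neighbour Lilrb4a, and both overlap the read-through locus Gm49339 on the same strand, so reads may have been lost or split between them.

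**Figure D2:**
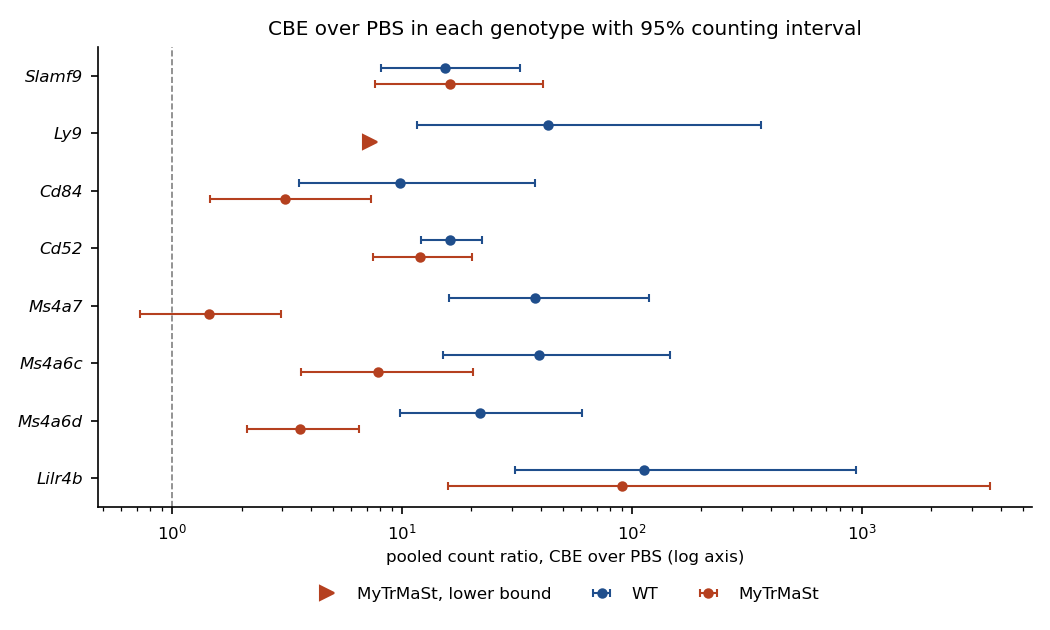
Ratio of pooled counts over library size, CBE over PBS (x axis, log scale), for each gene (y axis) in WT and in MyTrMaSt mice, with 95% intervals that cover counting error only. The triangle is the lower bound for Ly9. The intervals of Ms4a7 are far apart between the genotypes, from 16.0 to 118 in WT and from 0.725 to 2.98 in MyTrMaSt, while those of Slamf9 lie nearly on top of each other.

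Calls required a change of 2-fold or more and an adjusted p (Benjamini-Hochberg, over all tested genes) under 0.05 in edgeR's quasi-likelihood test. By that rule all 8 genes were higher with CBE in WT mice, where 5.20% of all tested genes were, and 6 of 8 in MyTrMaSt mice, where 3.23% were. CBE libraries lay wholly above PBS libraries for 8 genes in WT (15.1% of all tested genes) and for 6 in MyTrMaSt (11.8%). These counts follow from how the genes were picked, and nothing is read from them. Without WT + PBS replicate 1 all 8 were still called in WT, but Cd84 lost its call there with Xist level as a covariate. In MyTrMaSt, Ms4a6d was no longer called without PBS replicate 1 or replicate 2, or with the replicate number as a block. Their median log2 difference was 4.75 in WT and 3.23 in MyTrMaSt, or 2.87 in MyTrMaSt with Lilr4b and Ly9 at their pooled ratio or bound, against -0.02 and 0.01 over all tested genes.

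The order of levels changed with genotype. In WT + CBE, Cd52 exceeded Lilr4b in every library, then Lilr4b, Ms4a7, Ms4a6c and Slamf9 followed with overlap between neighbours, and Slamf9, Ms4a6d, Ly9 and Cd84 descended without overlap. In MyTrMaSt + CBE, Cd52 again exceeded the next gene in every library, but that gene was Slamf9. Below it Lilr4b, Ms4a6d, Ms4a6c, Cd84, Ly9 and Ms4a7 followed, with each neighbour overlapping the next. Ms4a7 thus went from the third place to the last.

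The comparison of MyTrMaSt + CBE with WT + CBE asks how levels after CBE differ between the genotypes. The deleted adaptors and any difference in background or colony cannot be told apart in it. It uses the CBE libraries in which the genes were picked as high, so a lower level in MyTrMaSt is favoured by the choice, and the values are given as a description with no p. In it 6 of 8 genes were called lower, against 1.93% of all tested genes, and for 7 of 8 every MyTrMaSt library lay below every WT library, against 6.02%. The median log2 difference was -1.87, against 0.02 over all tested genes.

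Ms4a7 showed the largest of these differences, with a MyTrMaSt mean of 7.80% of the WT mean (log2 difference -3.64, SE 0.33). Ly9 stood at 19.3% of WT (-2.36, SE 0.35) and Cd52 at 22.5% (-2.16, SE 0.24). For Ms4a6c the share was 25.3% (-1.96, SE 0.27) and for Lilr4b 29.1% (-1.77, SE 0.26). Ms4a6d was lower at 34.3% (-1.52, SE 0.33). That last gene was no longer called when any 1 WT + CBE library was left out, or with the replicate number as a block. Slamf9 was at 55.3% of WT (-0.86, SE 0.23) with all MyTrMaSt libraries lower, and was not called. Cd84 was at 54.0% (-0.89, SE 0.44) with overlapping libraries, and was not called either.

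The baseline comparison, MyTrMaSt + PBS against WT + PBS, was not used in the choice, but its libraries are the PBS arms of the contrasts that were, so its p-values are not fully independent of it. In it none of the 8 genes was called by edgeR, where 0.160% of all tested genes were, and 1 had an unadjusted p below 0.05. That gene was Cd52, with a MyTrMaSt mean of 23.1% of the WT mean, all libraries lower, a log2 difference of -1.795 (SE 0.49) and an edgeR adjusted p of 0.129. Without WT + PBS replicate 1 the share was 37.9% and the log2 difference -1.36. The summed level of 17 markers of microglia was also lower in every MyTrMaSt + PBS library (624.9 to 700.3 CPM) than in WT + PBS (753 to 1054 CPM), with Trem2 the 1 marker called (log2 difference -1.29, SE 0.21, edgeR adjusted p = 0.0114). Divided by that sum, Cd52 overlapped between the genotypes, at 0.983 to 4.76 per 1000 in MyTrMaSt + PBS and 4.51 to 13.65 in WT + PBS. Without the 3 complement C1q genes the sum was nearer between the genotypes, at 369.7 to 410.6 CPM in MyTrMaSt + PBS and 411.5 to 460.9 CPM in WT + PBS, with a median log2 difference of 0.06 over the 14 markers. Divided by that smaller sum, Cd52 was lower in every MyTrMaSt + PBS library, at 1.68 to 7.72 per 1000 against 8.21 to 33.5. With DESeq2 as the alternative test Cd52 was called at -1.855 (adjusted p = 0.0130). DESeq2 gave an adjusted p to only 3 of the 8 genes here, and Cd52 was the only call among them. Of all genes it called 114 of 9320. Over all alternatives the adjusted p of Cd52 ran from 0.0130 to 0.589. The fitted log2 differences of the other genes ran from -0.92 (SE 0.62) for Slamf9 to 1.04 (SE 0.77) for Ms4a6d, leaving out Lilr4b and Ly9 with at most 2 reads per group. Over the 3 WT + PBS libraries 6 of the 8 genes had under 10 reads.

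The difference between both CBE responses is built from the contrasts that chose the genes and is given as a description. It was -4.63 on the log2 scale (SE 0.82) for Ms4a7, -2.56 (SE 0.83) for Ms4a6d, -2.315 (SE 0.89) for Ms4a6c and -1.62 (SE 1.02) for Cd84, and nearer to 0 for Cd52, at -0.36 (SE 0.62), and Slamf9, at 0.06 (SE 0.43). For Lilr4b and Ly9, whose PBS groups held 0 to 2 reads, the value of the reported fit is left out. Values from alternative fits are listed for them further below, only to show how far they move. Only Ms4a7 was called, among 0.489% of all tested genes, and this call was lost without MyTrMaSt + PBS replicate 1 (-4.36) or replicate 3 (-4.51), with the replicate number as a block (-4.635) and with Xist level as a covariate (-4.98).

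RNA of brain homogenates was sequenced, so more cells of a type and more RNA per cell cannot be told apart. Markers of microglia, the resident macrophages of the brain, moved with the 8 genes when summed. The summed level of the 17 microglia markers listed, of 18 chosen, was 753 to 1054 CPM with PBS and 3659 to 4230 CPM with CBE in WT, and 624.9 to 700.3 CPM and 2134 to 2361 CPM in MyTrMaSt. Of these 17, 11 were called higher with CBE in WT, 9 in MyTrMaSt, and 3 lower in MyTrMaSt + CBE than in WT + CBE. Their median log2 difference was 1.78 in WT and 1.08 in MyTrMaSt. Without the 3 complement C1q genes it was 1.05 in WT and 0.86 in MyTrMaSt, with 8 and 6 of 14 markers called higher.

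Levels were also divided by that sum, again as a description, since the genes were picked for their rise with CBE. Per 1000 CPM of microglia markers, Cd52 stood at 4.51 to 13.65 in WT + PBS and 25.7 to 30.1 in WT + CBE. The ratio of its means was 3.11, and 2.5 to 4.32 with any 1 library left out. Slamf9 stood at 0.501 to 3.41 with PBS and 5.07 to 6.01 with CBE, a ratio of 2.86, and 2.09 to 4.70 with any 1 library left out, the highest without WT + PBS replicate 1. Ratios of the other genes are not given, as each had at least 1 WT + PBS library with no read. Without overlap, 7 of 8 genes were higher in WT + CBE, all but Cd84 (1.43% of all tested genes), a count that the choice of genes favours.

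In MyTrMaSt mice the same measure was higher with CBE without overlap for Cd52, Slamf9, Lilr4b and Ly9, 4 of 8 genes (0.540% of all tested genes), again favoured by the choice. The ratio of means was 3.75 for Cd52, and 2.83 to 5.64 with any 1 library left out, and 4.85 for Slamf9, and 4.38 to 5.06. Lilr4b and Ly9 had at most 1 read in the whole PBS group. Libraries overlapped for Ms4a7, at 1.19 to 2.95 with PBS and 0.685 to 1.39 with CBE, and also for Ms4a6c, Ms4a6d and Cd84. Without the C1q genes in the sum, Ms4a6c no longer overlapped, at 0.9497 to 3.35 per 1000 with PBS and 4.14 to 7.73 with CBE.

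Between the genotypes after CBE, the level per microglia marker was lower in every MyTrMaSt library for 5 of 8 genes (1.32% of all tested genes), with the same limit as above. MyTrMaSt means were 0.135 of the WT mean for Ms4a7, 0.342 for Ly9, 0.394 for Cd52, 0.441 for Ms4a6c and 0.504 for Lilr4b. The libraries overlapped for Ms4a6d at 0.599, Cd84 at 0.946 and Slamf9 at 0.972. The sum is weighted to the 3 complement C1q genes, which are abundant and can change within a cell. Without them the ratio was 0.733 for Slamf9, still overlapping, 0.102 for Ms4a7 and 0.448 for Ms4a6d, which then no longer overlapped.

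**Figure D3:**
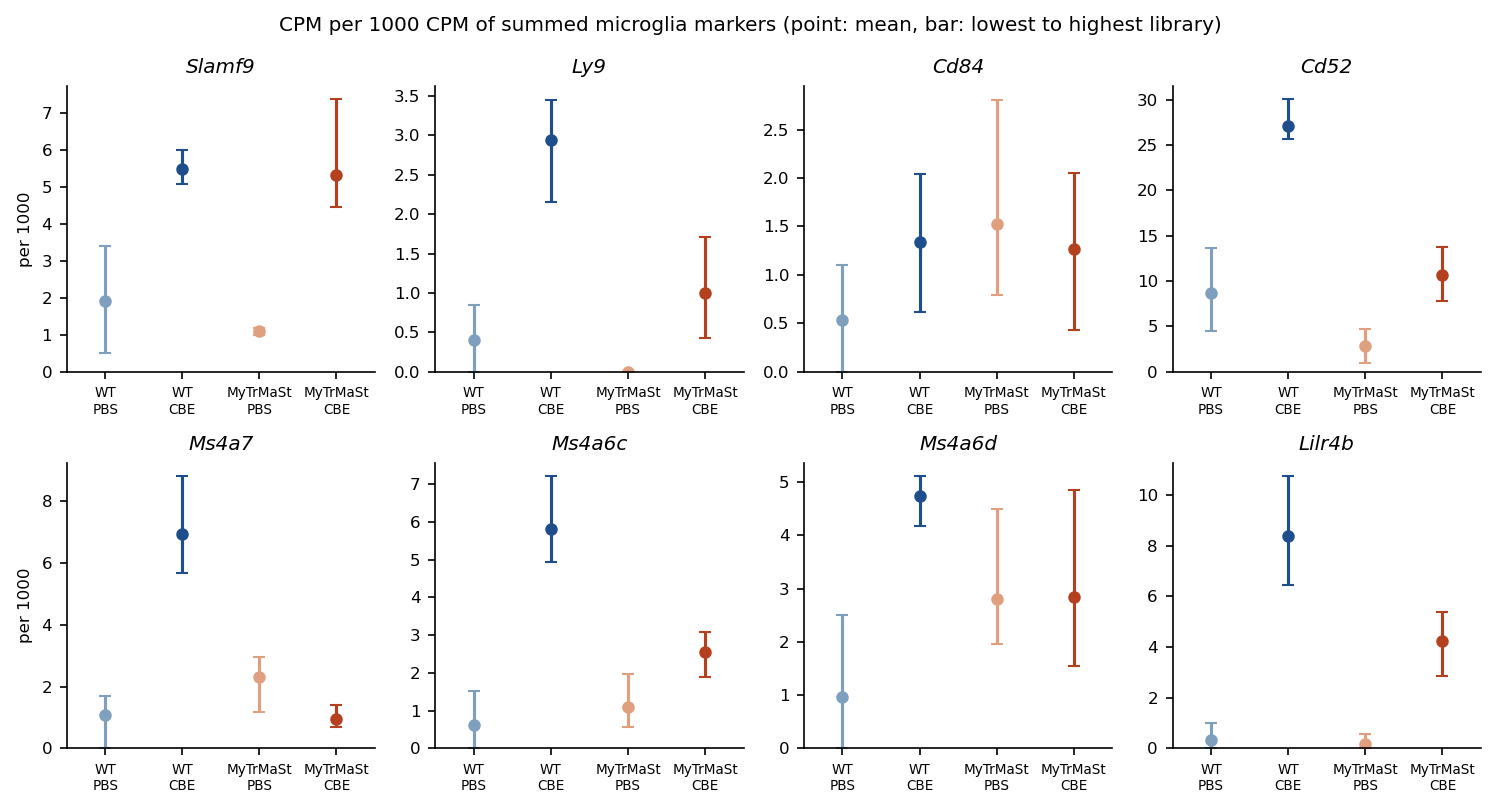
Level of each gene per 1000 CPM of summed microglia markers (y axes, from 0) in the 4 groups (x axes), with points at the mean and bars from the lowest to the highest library. For Slamf9 the CBE groups of both genotypes coincide, and for Ms4a7 the MyTrMaSt + CBE group lies below WT + CBE at a ratio of 0.135.

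Ms4a7 is also abundant in macrophages at the borders of the brain. The 9 border macrophage markers listed, of 13 chosen, summed to 18.9 to 28.8 CPM with PBS and 34.8 to 51.3 CPM with CBE in WT, and to 22.0 to 25.3 CPM and 25.1 to 44.7 CPM in MyTrMaSt. Of the 6 tested, 2 were called higher with CBE in WT, none in MyTrMaSt and none between the genotypes after CBE. The ranges of both CBE groups overlapped for this sum, while those of Ms4a7 did not. The part of border macrophages in the level of Ms4a7 was not tested.

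Markers of blood cells were sparse. Ly9, Cd84 and Cd52 are also made by lymphocytes, but of the 14 T and NK cell markers chosen only 4 were listed and none of the 2 tested, Cd4 and Lck, was called. Lck, a kinase of T cells, was lower in every MyTrMaSt + CBE library than in every WT + CBE library (log2 difference -1.41, SE 0.38, edgeR adjusted p = 0.0609), at 2.81 to 6.61 CPM in WT and 1.17 to 2.45 CPM in MyTrMaSt. Cd3e, which defines T cells, had at most 1 count in every library but WT + CBE replicate 1, which had 6. The sum of these 4 markers after CBE was 9.82 to 18.6 CPM in WT and 6.63 to 10.1 CPM in MyTrMaSt, which overlapped. Of the B cell markers 2 were listed, and Cd79a and Ms4a1 were not. The only 1 tested, Cd22, was called higher with CBE in both genotypes and lower in MyTrMaSt + CBE than in WT + CBE. The other, Cd79b, part of the B cell receptor, had overlapping libraries in all 4 comparisons and stood at 1.40 to 3.003 CPM in WT + CBE and 0.780 to 2.94 CPM in MyTrMaSt + CBE. Neither of the 2 monocyte markers tested was called, and Ccr2 and Ly6c2 were not listed. The third one listed, Chil3, had no read in any PBS library and 1 to 11 reads in each CBE library, 18 in all in WT and 10 in MyTrMaSt. Of 8 neutrophil markers 2 were listed, at a summed 0 to 5.655 CPM, and none was tested. None of the 8 neuron markers and none of the 6 choroid plexus markers was called in any comparison. Among them Tubb3 and Nefl, both of the neuronal cytoskeleton, were lower in every WT + CBE than WT + PBS library by less than 2-fold (log2 difference -0.91, SE 0.16, and -0.93, SE 0.21, edgeR adjusted p = 0.000595 and 0.00702). The same held for Snap25, a synaptic protein, in MyTrMaSt mice (log2 difference -0.52, SE 0.13, edgeR adjusted p = 0.0162). The part of any of these cells in the levels of the 8 genes was not tested.

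Other members of the same families gave a wider view. Their lists were chosen by family membership, but with earlier results of these data known, so the view is not independent. Over the WT + PBS libraries Lilrb4a had 5 reads, Cd300lf 4 and Ms4a6b 6. Such genes met the filter on low counts through the CBE groups, and their p-values are a description. Of the other SLAM genes, partners and adaptors, 3 of 13 were listed and 2 tested, and neither was called with CBE. Slamf8, too sparse to be tested, stood at 4.64, 2.81 and 5.405 CPM in WT + CBE and at 0 in all 5 MyTrMaSt + CBE libraries. Cd59a, an inhibitor of complement whose human relative was proposed as a CD2 partner, was higher in MyTrMaSt + PBS than in WT + PBS (log2 difference 1.38, SE 0.22, edgeR adjusted p = 0.0114).

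Of the other MS4A genes and the related TMEM176 pair, 4 of 18 were listed and 3 tested. Ms4a6b rose with CBE in WT (log2 difference 3.04, SE 0.60, edgeR adjusted p = 0.00233) and in MyTrMaSt had 1.91 (SE 0.63, edgeR adjusted p = 0.0718). Tmem176a, a membrane protein of antigen-presenting cells, rose in WT (1.53, SE 0.21) and in MyTrMaSt (1.35, SE 0.19). Its levels after CBE were 108, 89.4 and 96.7 CPM in WT and 88.9 to 109.5 CPM in MyTrMaSt, a log2 difference of -0.0013 (SE 0.18, edgeR adjusted p = 1). Tmem176a thus overlapped between the genotypes after CBE, whereas Ms4a7 did not.

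The list of LILR, PIR, PILR and CD300 receptors also held genes of other types, such as Sirpa, Siglech, Cd33 and Pianp. Of its 35 genes 11 were listed and 7 tested. Of those tested, 4 rose with CBE in WT, 3 in MyTrMaSt, and 4 were lower in MyTrMaSt + CBE than in WT + CBE. The tested genes called in none of these were Pianp, Sirpa and Siglech, all of the other types. Lilrb4a, the inhibitory neighbour of Lilr4b, stood at 0.421 to 0.899 CPM with PBS and 87.7 to 101 CPM with CBE in WT, and at 0.527 to 1.755 CPM and 26.7 to 45.3 CPM in MyTrMaSt. With CBE its log2 difference reached 7.003 in WT (SE 0.36) and 4.91 in MyTrMaSt (SE 0.31), and -1.41 (SE 0.18, edgeR adjusted p = 4.57e-05) between the genotypes after CBE. As 90.6% of its 3′-end stretches occur in other genes, its count is uncertain. Cd300lf, a receptor for lipids, was lower in MyTrMaSt + CBE by a log2 difference of -2.68 (SE 0.30), Pirb, an inhibitory receptor, by -2.09 (SE 0.53) and Cd33, a sialic acid receptor, by -1.47 (SE 0.30), with edgeR adjusted p of 1.25e-05, 0.0407 and 0.00755.

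Most of the signalling chain that serves such receptors rose with CBE. Of 15 adaptors, kinases and phosphatases chosen, 14 were listed and 12 tested. Of those, 11 were called higher with CBE in WT, 8 in MyTrMaSt, and 4 lower in MyTrMaSt + CBE than in WT + CBE. Tyrobp (DAP12), the ITAM adaptor of Trem2, rose by a log2 difference of 2.72 in both genotypes (SE 0.21 in WT and 0.19 in MyTrMaSt), and stood after CBE at 479 to 544 CPM in WT and 337 to 391 CPM in MyTrMaSt. Fcer1g, the other ITAM adaptor, rose by 3.07 (SE 0.24) in WT and 2.42 (SE 0.23) in MyTrMaSt, and was lower after CBE in MyTrMaSt by -1.20 (SE 0.18, edgeR adjusted p = 0.000376).

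The phosphatase Ptpn6 and the kinase Lyn were also called lower in MyTrMaSt + CBE, at -1.21 (SE 0.21, edgeR adjusted p = 0.00158) and -1.07 (SE 0.18, edgeR adjusted p = 0.00145). The phosphatase Inpp5d, at -0.64 (SE 0.18, edgeR adjusted p = 0.0820), and the linker Blnk, at -0.15 (SE 0.35, edgeR adjusted p = 1), were not. Blnk rose with CBE in both genotypes, by 2.15 (SE 0.46) and 1.72 (SE 0.40), with 1 MyTrMaSt + CBE library at 88.3 CPM and the other 4 between 20.6 and 38.6.

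**Figure D4:**
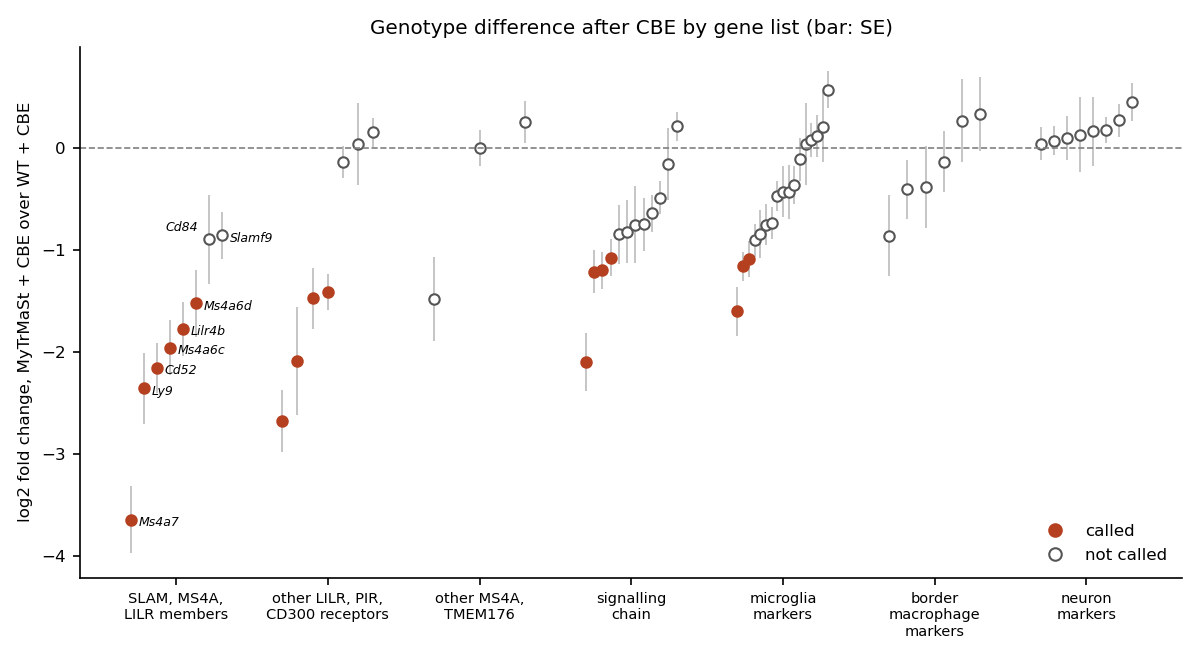
Log2 difference between MyTrMaSt + CBE and WT + CBE (y axis, bars of 1 SE) for every tested gene of 7 lists (x axis), filled where called. Among the 8 receptor genes at the left, 6 are filled, from -1.52 for Ms4a6d to -3.64 for Ms4a7, and the neuron markers at the right all lie above the dashed line at 0 with none filled.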

How the data were processed

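Bulk MARSseq libraries, which capture 3′ ends of mRNA, were made from brain of 14 mice and sequenced on a NextSeq-500. The authors mapped the reads to mm10 with hisat, kept unique reads and deposited whole-number counts per gene. The submitters' processing notes also name cutadapt and HTSeq. Whether strand or molecular identifiers were used in counting is not given in the sources used here. The deposited counts were analysed. A deposited table of scaled counts and a table of the authors' own fold changes and p-values for CBE against PBS in each genotype were not used.

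Groups were taken from the sample labels. Separate mice are the replicates, and p-values measure the spread between them. All 14 libraries were fitted with edgeR 4.0.16 in R 4.3.3 (quasi-likelihood F test, filterByExpr, TMM, 4 group means), with SE as the log2 difference over the square root of F. Genes called passed 2-fold and an adjusted p of 0.05 over 11852 genes. Alternatives were DESeq2 1.42.0, its size factors, other filters on low counts (none, or 10 counts in every library), only the groups compared, a replicate block, Xist level as a covariate and leaving out each library. The fit was tested on simulated data. Pooled ratios have exact 95% intervals for counting error only, and floors of 3 counts. Python 3.11.15 and SciPy 1.17.1 were used. Two-sided tests were used throughout.

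The 8 genes and all lists were chosen with earlier results of these data known. All listed members are named, and of other lists the called genes, up to the 6 with the highest mean CPM. Slamf8, Trem2, Tubb3, Nefl, Snap25, Cd3e, Cd22, Lck, Cd4, Cd79b and Chil3 were named after their values were seen, as defining markers or relatives. Pianp, Sirpa and Siglech were also named after their values were seen, to describe their list. Of the gene symbols, 22 had turned into dates and were left as they are. Libraries of a group differed by more than sampling noise in all 19 pairs (chi-square per degree of freedom 2.32 to 20.6). Promoters came from RefSeq (GRCm38.p6) and gene positions from GENCODE on GRCm38.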

Additional observations from a re-analysis of the deposited data

Results flagged for a closer look

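Among 29 items tested for a library far from the rest of a group of 5 (MyTrMaSt + CBE), where chance picks out about 1 in 20, 2 were found. Blnk stood at 88.3 CPM in MyTrMaSt + CBE replicate 4, a gap to the next library of 0.735 of the whole range, above the critical value of 0.710. Lyn stood at 19.4 CPM in MyTrMaSt + CBE replicate 1, with a gap of 0.784. None of the 8 receptor genes was among them.

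The CBE responses of Ms4a7 in the 2 genotypes differed by -4.63 on the log2 scale (SE 0.82), which was past the threshold of the interaction term. The gene was picked on the contrasts that make up this difference, so it is a description and no p is given. Over all alternatives the difference ran from -5.30 to -3.68. The call was lost with the replicate block, with Xist level as a covariate, and without MyTrMaSt + PBS replicate 1 or replicate 3.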

How the results depend on the processing

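The count of genes called with CBE in WT was 8, in MyTrMaSt 6 and between genotypes after CBE 6 in the fit reported, and every alternative that could be run kept these within 1.5 times. The count at baseline was 0, and 1 with DESeq2 (Cd52), which gave an adjusted p to only 3 of the 8 genes. The count in the interaction was 1, and 0 with the replicate block and with Xist level as a covariate, and ran from 0 to 1 over the fits that left out 1 library. For Ms4a7 in the interaction these gave -4.635 with the block and -4.98 with Xist. Ms4a6d lost its call with the block in MyTrMaSt CBE against PBS and between genotypes after CBE, and in the former also without MyTrMaSt + PBS replicate 1 or 2. Cd84 in WT lost its call with Xist. The causes were not tested.

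Directions turned only in differences at baseline and in the interaction that were not called: Ly9 in the interaction was -0.073 with DESeq2. Over the fits without 1 library, the baseline difference ran from -0.29 to 1.60 for Ms4a6c and from -2.76 to 1.67 for Lilr4b. The interaction ran from -0.18 to 0.95 for Ly9, -0.44 to 0.52 for Slamf9, -3.45 to 0.98 for Lilr4b and -0.81 to 0.31 for Cd52. The values given here for Lilr4b and Ly9 rest on PBS groups of 0 to 2 reads. Neither their size nor their direction can be read. The filter of 10 counts in every library left none of the 8 genes and gave no value. DESeq2 size factors moved the median of all genes by at most 0.011 in size (log2 -0.011). Replicate numbers did not pair the samples: deviations of same-numbered libraries correlated at -0.184 to 0.173 (18 pairs, 3 over 0.1), and of others at -0.232 to 0.236 (54 pairs). Depth limits the PBS groups, where these genes had few reads.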
